A study of Mus musculus with 81 samples.

Results

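The CD11c step is the difference between 2 sorted gates of microglia, the resident macrophages of the brain, taken from the same cuprizone-fed genotype: CD229+ CD11c+ cells set against CD229+ CD11c- cells. All libraries that the labels give for these gates were taken, 3 CD229+ CD11c+ and 3 CD229+ CD11c- libraries, 6 of the 81 in the series. The donors were adult male C57BL/6 mice carrying 1 Cx3cr1CreERT2 allele beside a wild-type one (Cre), so every cell of both gates carries a tamoxifen-inducible Cre recombinase driven from the locus of the fractalkine receptor. They ate 0.2% cuprizone for 6 weeks, and the brains of 2 to 6 mice were pooled for sorting. RNA of each gate was sequenced, and reads were counted per gene. A transcription inhibitor (Flavoperidol) and sodium butyrate were in the buffers of the cell preparation for every group. Further CD11c steps came from the same gates of mice labelled Egr2KO (Cx3cr1CreERT2/WT::Egr2fl/fl) at 6 weeks, from Clec7a+ CD229+ cells of Cre mice at 5 weeks, and from CD229+ cells of wild-type (WT) mice at 4 weeks, with 3 libraries per gate in each. The 6-week table also holds Cre CD229- cells and cells of untreated Cre mice, called baseline below.

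Cuprizone is a copper chelator that kills oligodendrocytes, and microglia then take up the myelin debris. In that setting a share of microglia turns on a program known from disease-associated microglia, with lipid handling, lysosomal and surface receptor genes, while genes of resting (homeostatic) microglia are reduced. CD229, encoded by Ly9, is a receptor of the SLAM family that binds itself on neighbouring cells. CD11c, encoded by Itgax, is the alpha chain of an integrin that pairs with CD18 to form a complement receptor, and microglia that carry it are known for insulin-like growth factor production during myelination.

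The CD229+ CD11c+ libraries held 8022748, 10010569 and 13884739 counted reads, and the CD229+ CD11c- libraries 8652565, 10581740 and 13135254. Levels are given in CPM, counts scaled to library size after TMM factors of 0.961 to 1.08 in CD229+ CD11c+ and 0.970 to 1.07 in CD229+ CD11c-. Replicate libraries of a gate differed by more than counting noise, with a chi-square of 4.36 to 16.1 per degree of freedom, so none was counted as a copy of another. The titles of replicates 2 and 3 of each gate carry the term PE150 and those of replicate 1 do not. A gene was called when its adjusted p in edgeR's quasi-likelihood test was under 0.05. These p-values measure the spread between the libraries, since the labels do not say whether libraries with different numbers came from separate pools of mice on separate days. In such bulk libraries, fewer cells of a type and less RNA per cell cannot be told apart.

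The gating genes followed the sort. Itgax (chromosome 7, 128129550 to 128150657, GRCm38) had 997, 820.1 and 609.9 CPM in CD229+ CD11c+ replicates 1, 2 and 3, against 152, 210.3 and 221 CPM in CD229+ CD11c-. All CD229+ CD11c+ libraries lay above all CD229+ CD11c- libraries, and the fold change was 4.15 (log2 2.05 ± 0.21 SE, adjusted p = 1.34e-07). Since CD11c was the gate, this is a check of the labels and not a result. Ly9, on which both gates were positive, had 372, 329 and 262 CPM in CD229+ CD11c+ and 209, 227 and 207 CPM in CD229+ CD11c-, a log2 fold change of 0.58 ± 0.15 (adjusted p = 0.00871). Its call was lost without CD229+ CD11c+ replicate 1, where the log2 value was 0.47 with an adjusted p of 0.0602. Both gates stood far above the 43.3 CPM of CD229- cells and the 62.0 CPM of baseline cells.

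Core microglial receptor transcripts were high in both gates. Csf1r, the receptor for the survival factor of macrophages, had 2229.7, 1803 and 1313 CPM in CD229+ CD11c+ and 2353, 1757 and 1471 CPM in CD229+ CD11c-, with a log2 fold change of -0.06 (adjusted p = 0.882). The ranges of the gates overlapped. Cx3cr1, the fractalkine receptor whose locus carries the Cre, had a log2 fold change of -0.26 ± 0.18 and was not called (adjusted p = 0.374), except with a replicate block (-0.25, adjusted p = 0.00995).

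Across the transcriptome, the step was broad and about even in direction. Of 13187 genes tested, 2264 were called, 17.2% of them, with 1139 higher in CD229+ CD11c+ (8.64%) and 1125 lower (8.53%). These shares of all genes are to be set beside each count of list members below. A change of at least 2-fold was seen for 294 of the higher and 207 of the lower genes. The median log2 fold change over all tested genes was -0.01, and 32.4% of the tested genes had no overlap between the 3 and 3 libraries, so a gap between the gates is common on its own. Leaving out CD229+ CD11c+ replicate 1 lowered the count of lower genes to 691.

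The genes with the largest rise were led by surface, matrix and endolysosomal genes. Postn, encoding the matrix protein periostin (chromosome 3, 54359267 to 54391041), had 239, 204 and 181 CPM in CD229+ CD11c+ libraries against 12, 17.4 and 21.4 CPM in CD229+ CD11c- libraries. The lowest CD229+ CD11c+ value was far above the highest CD229+ CD11c- value, and the fold change was 12 (log2 3.58 ± 0.16, adjusted p = 1.51e-14). Atp6v0d2, a subunit of the proton pump that acidifies lysosomes, had 40, 31.1 and 27 CPM against 1.31, 3.35 and 2.79 CPM (log2 3.66 ± 0.23, adjusted p = 4.47e-10). Mcoln2, an endolysosomal cation channel, rose 7.27-fold, and Myof, which takes part in membrane repair and fusion, rose 7.31-fold. Slamf7, a SLAM receptor encoded beside Ly9 (chromosome 1, 171632403 to 171653037), had 46.5, 41.3 and 41.5 CPM in CD229+ CD11c+ and 3.93, 5.39 and 6.00 CPM in CD229+ CD11c-. It separated the gates more widely than Ly9 itself did, with a log2 fold change of 3.05 ± 0.19 (adjusted p = 5.7e-11).

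Several of the other genes with the largest rise were expressed at low levels in both gates. Rnf186, a ubiquitin ligase of the endoplasmic reticulum, had 5.58, 4.39 and 6.39 CPM in CD229+ CD11c+ against 0.358, 0.186 and 0.643 CPM in CD229+ CD11c-, a fold change of 12.8. Acod1, the enzyme that makes itaconate in activated macrophages (chromosome 14, 103047012 to 103056573), had 7.66, 8.29 and 6.79 CPM against 0.715, 1.12 and 0.786 CPM, a fold change of 8.52 (log2 3.09 ± 0.38, adjusted p = 1.54e-06). Stac2, an adaptor of voltage-gated calcium channels, was near 6 CPM in each CD229+ CD11c+ library (6.36, 6.29 and 6.19) and at 0.238, 0.372 and 1.29 CPM in CD229+ CD11c-. The gates did not overlap for any of these 3 genes. Dkk2, a secreted modulator of Wnt signalling, averaged 32.2 ± 2.40 CPM in CD229+ CD11c+ and 3.85 ± 1.46 CPM in CD229+ CD11c- (SD, n = 3 each). Mamdc2, a secreted proteoglycan, averaged 89.9 ± 16.1 CPM and 10.9 ± 4.59 CPM in the same order. Stra6l, a retinol transporter, rose 7.27-fold, and Creg2, a secreted glycoprotein, rose 8.19-fold.

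**Figure D1:**
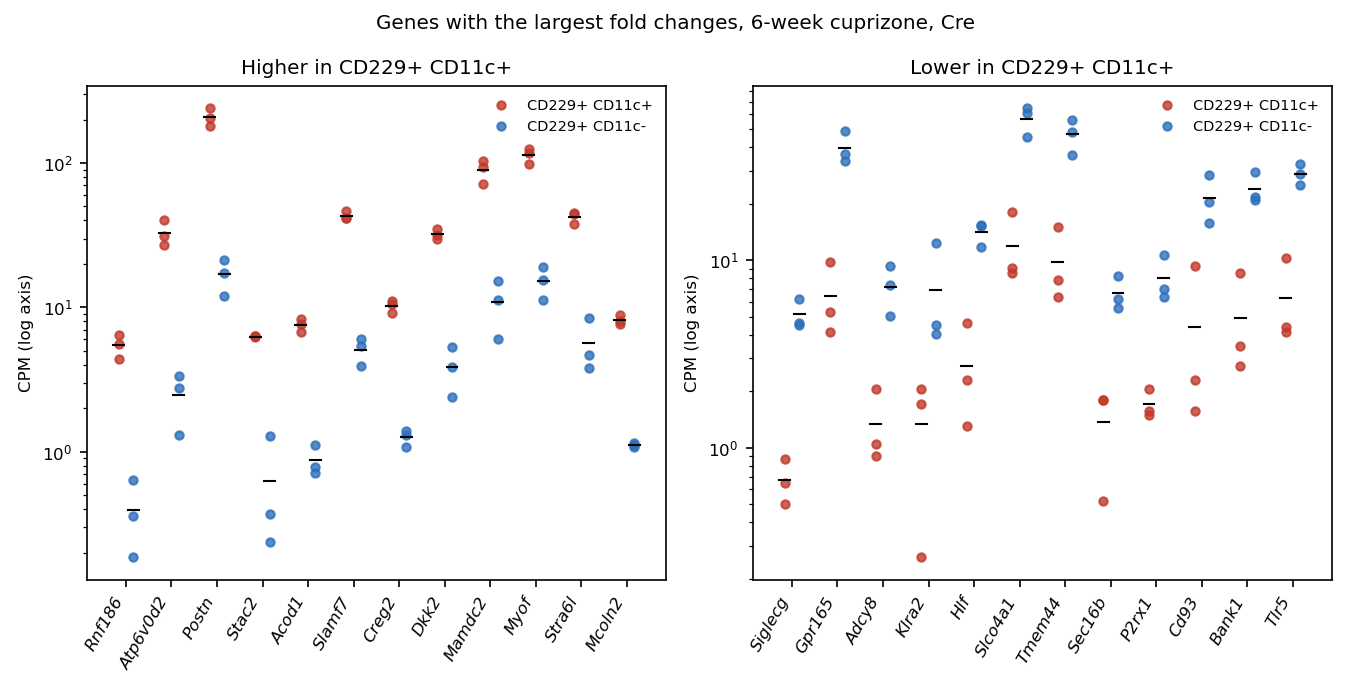
Levels in CPM on a log axis for the 12 genes with the largest rise and the 12 with the largest fall, 1 point per library and a bar at the mean, with CD229+ CD11c+ left of CD229+ CD11c-. For each gene every CD229+ CD11c+ library lies on the same side of every CD229+ CD11c- library, as the choice of genes required.

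The genes with the largest fall held receptors and a circadian regulator. Gpr165, an orphan G protein-coupled receptor, had 4.15, 5.29 and 9.78 CPM in CD229+ CD11c+ against 48.9, 33.9 and 36.7 CPM in CD229+ CD11c-, 5.75-fold lower (log2 -2.52 ± 0.27, adjusted p = 2.1e-07). Siglecg, an inhibitory receptor for sialic acid, had 0.649, 0.499 and 0.865 CPM against 4.53, 6.23 and 4.64 CPM and was 7.26-fold lower. Tlr5, the receptor for flagellin, had 4.15, 4.39 and 10.3 CPM against 32.4, 25 and 28.9 CPM (log2 -2.08 ± 0.22, adjusted p = 1.5e-07). In each of these, CD229+ CD11c+ replicate 3 was the highest of its gate, yet it stayed below every CD229+ CD11c- library. Hlf, a transcription factor of the circadian PAR family, had 1.30, 2.30 and 4.59 CPM against 15.4, 11.7 and 15.1 CPM, 4.65-fold lower. Slco4a1, an organic anion transporter, was 4.53-fold lower and P2rx1, an ATP-gated channel, 4.45-fold lower. Bank1, a scaffold known from B cell receptor signalling, was 4.39-fold lower. The transmembrane gene Tmem44 was 4.52-fold lower, and the calcium-stimulated adenylate cyclase Adcy8 was 4.93-fold lower. Sec16b, a gene of transport from the endoplasmic reticulum, was 4.45-fold lower.

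Both Cd93 and Klra2 belonged to the same group of falling genes. They are set here beside markers of border macrophages, the macrophages of the meninges and perivascular spaces. Cd93, a receptor of myeloid and endothelial cells, had 1.56, 2.30 and 9.32 CPM in CD229+ CD11c+ against 20.4, 28.5 and 15.7 CPM in CD229+ CD11c- (log2 -2.15 ± 0.54, adjusted p = 0.00586). Klra2, a lectin-like receptor, had 0.260, 1.70 and 2.06 CPM against 4.05, 12.3 and 4.50 CPM, and its call was lost without CD229+ CD11c- replicate 2 (log2 -1.56, adjusted p = 0.0506). The 8 border macrophage markers tested summed to 57, 68 and 230 CPM in CD229+ CD11c+ against 376, 380 and 149 CPM in CD229+ CD11c-. Replicate 3 went the other way from replicates 1 and 2, so the sums overlapped. In replicate 3, Cd93 and Klra2 did not turn and stayed lower in CD229+ CD11c+. Mrc1, the mannose receptor, had 21.0, 27 and 111 CPM against 202, 196 and 78.2 CPM, and Cd163, the haemoglobin scavenger receptor, had 3.77, 3.09 and 24.3 CPM against 41.9, 39.8 and 15.1 CPM. Of the 8, Mrc1 (log2 -1.51 ± 0.47) and the folate receptor gene Folr2 (-0.86 ± 0.22) were called lower. The call of Mrc1 was lost without replicate 1 or 2 of either gate (adjusted p = 0.085 to 0.142), and that of Folr2 without CD229+ CD11c+ replicate 1 (0.0611) or CD229+ CD11c- replicate 2 (0.105). The part of these cells in the falls of Cd93, Klra2 and of the chemokine receptors Ccr1 and Ccr2 was not tested.

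Most genes of the disease-associated program rose. Of 24 such genes tested, 18 rose and 0 fell, with a median log2 fold change of 0.69 beside -0.01 over all genes. Summed over the list, CD229+ CD11c+ libraries held 22769, 17789 and 12424 CPM against 12124, 12367 and 9343 CPM in CD229+ CD11c-. Replicate 3 was the lowest in both gates, and each CD229+ CD11c+ library lay above all CD229+ CD11c- libraries. Gpnmb, a transmembrane glycoprotein of lipid-laden phagocytes, had 330.0, 263 and 162 CPM in CD229+ CD11c+ against 53.8, 119 and 71.8 CPM in CD229+ CD11c-, 3.06-fold higher (log2 1.61 ± 0.24, adjusted p = 1.71e-05). Lgals3, which encodes galectin-3 of damaged lysosomes, was 3.01-fold higher and Fabp5, a fatty acid binding protein, was 2.86-fold higher. Apoe, the main lipid carrier of the brain, had 4363, 2969 and 1853 CPM against 1442, 1331 and 889 CPM (log2 1.33 ± 0.22, adjusted p = 8.97e-05). Spp1, encoding osteopontin, rose 2.12-fold, the lipoprotein lipase gene Lpl 1.84-fold and the macrophage growth factor gene Csf1 1.80-fold. Clec7a, the beta-glucan receptor that served as a gate in the 5-week sort, had 819, 661 and 496 CPM against 344, 419 and 326 CPM (log2 0.86 ± 0.15, adjusted p = 0.000102).

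Trem2, the lipid receptor known to be needed for this program, was not called with 632, 482 and 348 CPM in CD229+ CD11c+ against 479, 364 and 298 CPM in CD229+ CD11c- (log2 0.36 ± 0.18, adjusted p = 0.191). The gates overlapped for it. It was called without CD229+ CD11c+ replicate 3 (log2 0.55, adjusted p = 0.0262) and without CD229+ CD11c- replicate 1 (log2 0.55, adjusted p = 0.0456). It was also called with no filter on low counts (0.0123), with a replicate block (0.00114) and with PE150 as a covariate (0.0336). Its signalling adaptor gene Tyrobp, with a log2 fold change of 0.31 (adjusted p = 0.212), was not called, nor was the lysosomal protease gene Ctsd at 0.28 (adjusted p = 0.449).

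Homeostatic genes went the opposite way. Of 20 tested, 0 rose and 9 fell, with a median log2 fold change of -0.43, and their sums were 15345, 13129 and 10446 CPM in CD229+ CD11c+ against 20348, 15294 and 13114 CPM in CD229+ CD11c-. These sums overlapped between the gates. Tmem119, a membrane protein used as a microglial marker, had 447, 412 and 374 CPM in CD229+ CD11c+ against 1074, 719 and 622 CPM in CD229+ CD11c- (log2 -0.97 ± 0.18, adjusted p = 0.000386). P2ry12, the ADP receptor that guides microglial processes to injury, had 632, 545 and 512 CPM against 1394, 947 and 839.6 CPM (log2 -0.91 ± 0.20, adjusted p = 0.00146). The gates did not overlap for either gene. Slc2a5, the fructose transporter of microglia, fell to 97.0, 105 and 116 CPM in CD229+ CD11c+, against 290.1, 220.4 and 210.4 CPM in CD229+ CD11c- (log2 -1.17 ± 0.13, adjusted p = 3.28e-07). Crybb1, a crystallin gene of young microglia, was 2.95-fold lower and Upk1b, a uroplakin of the tetraspanin family, 2.51-fold lower. P2ry13, a related ADP receptor, had a log2 fold change of -0.64 (adjusted p = 0.00479), lost without CD229+ CD11c- replicate 1 (-0.44, adjusted p = 0.0558). The lectin gene Siglech behaved alike, with -0.56 (adjusted p = 0.00784) and, without the same library, -0.41 (adjusted p = 0.0658).

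**Figure D2:**
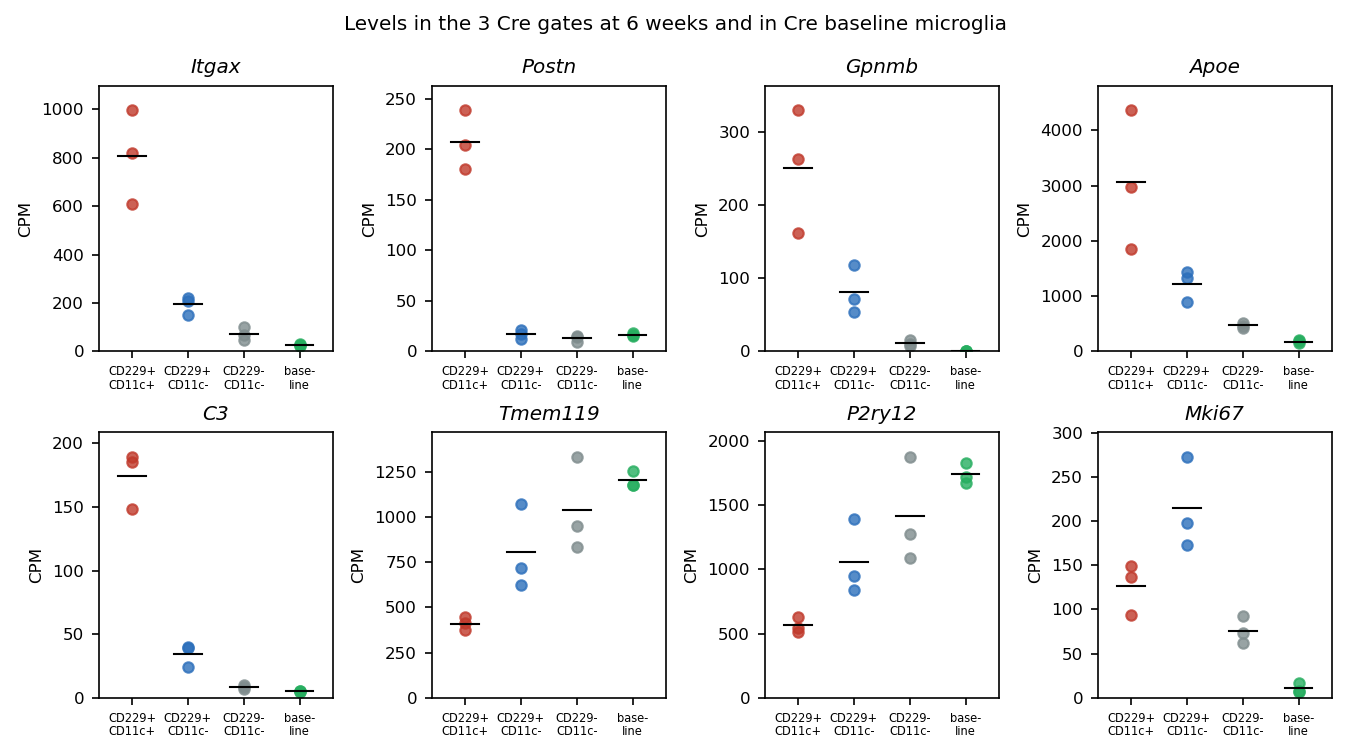
Levels of 8 genes in CPM (linear axes from 0) by gate at 6 weeks in Cre mice, from CD229+ CD11c+ through CD229+ CD11c- and CD229- to baseline, 1 point per library and a bar at the mean. Itgax, Postn, C3, Gpnmb and Apoe are highest in CD229+ CD11c+, and Tmem119 and P2ry12 are lowest there.

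The levels in the other gates show where CD229+ CD11c- cells stood. The CD229+ CD11c- libraries serve in both the CD11c step and the CD229 step (CD229+ CD11c- against CD229-, with 17.2% of genes called, 10.7% higher and 6.54% lower), so the 2 steps are not independent and only levels are given. Gpnmb averaged 251 CPM in CD229+ CD11c+, 81.4 CPM in CD229+ CD11c-, 11.2 CPM in CD229- and 0.196 CPM in baseline cells. Apoe averaged 3062, 1221, 472 and 178 CPM in the same order. For both genes, CD229+ CD11c- cells were at an intermediate level. Postn had another shape, with 208, 16.9, 13.1 and 16.6 CPM, so it was high in CD229+ CD11c+ and near the baseline level in the other gates. Tmem119 averaged 411, 805, 1041 and 1204 CPM and Gpr165 6.41, 39.8, 122 and 161 CPM, each lowest in CD229+ CD11c+. Mki67, a marker of dividing cells, was highest in CD229+ CD11c- with 126, 214, 75.8 and 10.7 CPM.

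Genes of lipid uptake and storage were called mostly upward. Of 16 lipid storage and uptake genes tested, 8 rose and 2 fell, with a median log2 fold change of 0.41. Plin2, the coat protein of lipid droplets, had 161, 139 and 114 CPM in CD229+ CD11c+ against 77.1, 83.6 and 70.7 CPM in CD229+ CD11c-, a fold change of 1.78 (log2 0.83 ± 0.11, adjusted p = 3.96e-06). Dgat2, which makes triglycerides, rose 3.57-fold from a low level, with 7.53, 9.58 and 7.19 CPM against 1.19, 2.23 and 3.07 CPM. The 2 that fell were Acsl1, a fatty acid activating enzyme, at -0.36 and Mgll, a monoglyceride lipase, at -0.24 on the log2 scale. Acsl1 lost its call without CD229+ CD11c+ replicate 1 (adjusted p = 0.079), and Mgll without CD229+ CD11c+ replicate 1 or 2 or CD229+ CD11c- replicate 1 or 3 (0.0526 to 0.165). Of 16 sterol efflux genes, 4 rose (Apoc1, Apoc2, Apoc4 and Abcg1) and 3 fell (Abcg3, Apob and Lpcat3), with a median of 0.25. Apob lost its call whichever library was left out (adjusted p = 0.0552 to 0.136), Abcg1 without CD229+ CD11c+ replicate 1 (0.0756) or CD229+ CD11c- replicate 3 (0.0523), and Lpcat3 without CD229+ CD11c+ replicate 3 (0.075) or CD229+ CD11c- replicate 1 (0.0678). The apolipoprotein genes Apoc1, Apoc2 and Apoc4 lie beside Apoe on chromosome 7 within 19671579 to 19699188 on 1 strand, and neighbouring genes can share reads. Apoc1 had 83.2, 59.0 and 40.5 CPM against 12.4, 23.2 and 14.7 CPM (log2 1.84 ± 0.25, adjusted p = 4.96e-06). Cholesterol synthesis genes were called in 2 of 20, both upward, a share near the 8.64% of all genes. Dhcr7 (log2 0.36) lost its call without CD229+ CD11c+ replicate 2 or CD229+ CD11c- replicate 1 or 3 (adjusted p = 0.0566 to 0.0781), and Pmvk (0.65) without replicate 1 of either gate, CD229+ CD11c+ replicate 2 or CD229+ CD11c- replicate 3 (0.0603 to 0.111).

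Most lysosomal and metabolic genes moved in smaller steps than Atp6v0d2, the lysosomal gene with the widest rise (log2 3.66). Of 22 lysosomal genes, 6 rose and 0 fell (27.3% and 0%, beside 8.64% and 8.53% of all genes), with a median log2 fold change of 0.23. Atp6v1a, the catalytic subunit of the proton pump, had 257, 236 and 205 CPM in CD229+ CD11c+ against 146, 179.6 and 161 CPM in CD229+ CD11c- (log2 0.52 ± 0.08, adjusted p = 4.73e-05). Glb1, the lysosomal beta-galactosidase, rose 1.37-fold. Of 16 glycolysis genes, 11 rose and 0 fell, with a median of 0.39 and sums of 4082, 3494 and 2816 CPM against 3009, 2859 and 2504 CPM, which overlapped. Slc2a1, the glucose transporter GLUT1, had 266, 225 and 212 CPM against 149.6, 145 and 161 CPM (log2 0.62 ± 0.09, adjusted p = 1.49e-05). Slc16a3, the lactate exporter, rose 1.34-fold. Hmox1, which breaks down haem, rose 1.53-fold, while Slc40a1, the iron exporter ferroportin, had 94.8, 91.1 and 118 CPM in CD229+ CD11c+ against 218, 161 and 172 CPM in CD229+ CD11c- (log2 -0.85 ± 0.12, adjusted p = 6.49e-06).

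Complement genes were called in both directions. C3, the central complement component, had 185, 189 and 148 CPM in CD229+ CD11c+ against 24.2, 40.3 and 39.0 CPM in CD229+ CD11c-, 4.99-fold higher (log2 2.32 ± 0.18, adjusted p = 2.83e-09). Cfb, a serine protease of the alternative pathway, rose 2.45-fold. The C5a receptor genes C5ar2 (log2 -0.67 ± 0.10) and C5ar1 (-0.37 ± 0.08) fell. Thus 2 of the 11 complement genes tested rose and 2 fell (18.2% each, beside 8.64% and 8.53% of all genes). Cybb, the catalytic subunit of the phagocyte NADPH oxidase, had 433, 389 and 339 CPM against 97.3, 137 and 106 CPM, 3.41-fold higher (adjusted p = 1.77e-05). None of the 6 Fc receptor genes tested was called, with a median log2 fold change of 0.05. With a replicate block, the low-affinity receptor gene Fcgr4 was called (adjusted p = 0.0141).

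Secreted factors and proteases included some of the wider gaps. Igf1, the growth factor that supports myelin-forming cells, had 385, 380.1 and 289.7 CPM in CD229+ CD11c+ against 103, 219.8 and 144 CPM in CD229+ CD11c- (log2 1.17 ± 0.23, adjusted p = 0.000518). Mmp12, the macrophage elastase, had 113, 105 and 101 CPM against 17.1, 29.8 and 34.1 CPM, 3.88-fold higher. Every CD229+ CD11c+ library was above every CD229+ CD11c- library for both. Tgfb2, a TGF-beta ligand, averaged 5.78 ± 1.55 CPM in CD229+ CD11c+ and 1.01 ± 0.117 CPM in CD229+ CD11c- (SD, n = 3 each), 5.52-fold higher. Of 17 secreted growth factor and matrix genes tested, Postn among them, 7 rose and 3 fell (Gdf15, Igfbp4 and Bmp1). Bmp1 lost its call without CD229+ CD11c+ replicate 1 or 2 or CD229+ CD11c- replicate 3 (adjusted p = 0.057 to 0.0717). Among the rising genes of this list, Cxcl14, a secreted chemokine, rose 2.95-fold. Pdgfa, a mitogen of oligodendrocyte precursors, had a log2 fold change of 0.55 ± 0.08. Of 9 matrix metalloproteinases, relatives and inhibitors 3 rose (Mmp12, Adam8 and Mmp14) and 1 fell (Adamtsl2).

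Cytokine genes were split, with 4 of 15 rising and 4 falling (26.7% each, beside 8.64% and 8.53% of all genes). Il1b, the inflammatory cytokine interleukin-1 beta, had 55.4, 35.7 and 46.1 CPM in CD229+ CD11c+ against 16.8, 16.6 and 27.4 CPM in CD229+ CD11c- (log2 1.15 ± 0.19, adjusted p = 8.72e-05). The gene of its antagonist, Il1rn, also rose (log2 0.97 ± 0.23), as did the NF-kB genes Relb (0.40 ± 0.08) and Tnfaip3 (0.25 ± 0.07), the last with its call lost without replicate 2 of CD229+ CD11c+ (adjusted p = 0.0572) or of CD229+ CD11c- (0.0683). Il6 had 0.909, 1.70 and 1.40 CPM against 5.72, 4.46 and 5.14 CPM, 3.70-fold lower (adjusted p = 9.18e-06). Il1a, encoding interleukin-1 alpha, had 91.1, 84.0 and 93.4 CPM against 147, 118 and 136 CPM (log2 -0.58 ± 0.13, adjusted p = 0.00159). The interleukin-1 genes thus moved in opposite directions. Nlrp3, an inflammasome sensor, fell by 0.31 and Il18 fell by 0.29 on the log2 scale, and Il18 lost its call whichever library was left out, except CD229+ CD11c+ replicate 3 (adjusted p = 0.0586 to 0.237). Of 13 chemokine and chemokine receptor genes tested, Cxcl16 (1.73-fold) and Ccl5 (2.7-fold) rose. Ccr1 (log2 -1.10 ± 0.34) and Ccr2 (-1.06 ± 0.32) fell, with the call of Ccr1 lost without replicate 1 or 2 of either gate (adjusted p = 0.0616 to 0.133) and that of Ccr2 without replicate 2 of either gate or CD229+ CD11c+ replicate 1 (0.0856 to 0.10).

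Adhesion and SLAM family receptors also differed member by member. Itgal, the alpha chain of LFA-1, had 76.0, 71.2 and 62.3 CPM in CD229+ CD11c+ against 13.1, 29.1 and 17.8 CPM in CD229+ CD11c-, 3.46-fold higher (adjusted p = 5.47e-07). Itga9, an integrin chain that binds osteopontin and tenascin, had 54.9, 72.6 and 69.3 CPM against 144, 135 and 125 CPM, 2.04-fold lower. Of 16 integrin and adhesion genes tested, including the gated Itgax, 5 rose and 3 fell. The others that rose were the hyaluronan receptor gene Cd44 (3.15-fold), Itga4 (log2 1.00 ± 0.26) and Itga5 (0.57 ± 0.08), and the others that fell were Itgav (-0.37 ± 0.10) and Itgb3 (-0.42 ± 0.08). Itga4 lost its call in DESeq2's Wald test (adjusted p = 0.0626), and Itgav among libraries with PE150 in their titles (0.0873). Among 10 SLAM family genes tested, including the gated Ly9, 5 rose and 1 fell. The one that fell was Slamf1, with 3.12, 3.79 and 4.53 CPM against 7.27, 7.53 and 8.29 CPM (log2 -0.98 ± 0.19, adjusted p = 0.000384). Slamf8 (log2 0.75 ± 0.10) and Cd48 (0.64 ± 0.11) rose. Cd244a, encoding a receptor for CD48, rose by 0.54 ± 0.16, a call lost without CD229+ CD11c+ replicate 1 or CD229+ CD11c- replicate 1 or 3 (adjusted p = 0.0572 to 0.115).

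Interferon-response and antigen presentation genes were called upward. Of 25 interferon-response genes, 9 rose and 0 fell, with a median log2 fold change of 0.29. Usp18, which limits interferon signalling, had 47.3, 44.4 and 46.6 CPM in CD229+ CD11c+ against 27.4, 30.7 and 32.8 CPM in CD229+ CD11c-, 1.51-fold higher (adjusted p = 6.19e-05). Of 8 genes of MHC class II presentation, 4 rose with a median of 0.92, but the calls were not firm. Ciita, the transactivator of the class, had 17.1, 19.8 and 17.8 CPM against 7.51, 12.9 and 4.00 CPM (log2 1.18 ± 0.30, adjusted p = 0.00682) and lost its call without CD229+ CD11c- replicate 3 (0.82, adjusted p = 0.0664). Cd74, the invariant chain, had a log2 fold change of 1.20 ± 0.33 (adjusted p = 0.0126), with an adjusted p of 0.0854 without CD229+ CD11c+ replicate 1 and 0.0712 without CD229+ CD11c- replicate 3. H2-Ab1 had 1.04 ± 0.33 (adjusted p = 0.0284), with an adjusted p of 0.152 in DESeq2's Wald test and of 0.0726 to 0.143 without CD229+ CD11c+ replicate 1 or 2 or CD229+ CD11c- replicate 1 or 3. H2-Oa, a modulator of peptide loading, had 0.27 ± 0.08 and lost its call without CD229+ CD11c+ replicate 2 or CD229+ CD11c- replicate 1 or 3 (0.0549 to 0.0762). H2 genes are near-identical in parts and can share reads, and the microRNA gene Mir5107 lies inside Cd74 on the same strand.

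Transcription factor genes moved little as a group, yet a few were called. Of 19 immediate early, AP-1 and EGR genes, 5 rose and 1 fell (26.3% and 5.26%, beside 8.64% and 8.53% of all genes). Egr2, the zinc finger factor whose gene is floxed in the mice labelled Egr2KO, had 119, 97.5 and 112 CPM in CD229+ CD11c+ against 32.3, 57.1 and 60.4 CPM in CD229+ CD11c-, 2.17-fold higher (log2 1.12 ± 0.19, adjusted p = 9.35e-05). Bhlhe40, a basic helix-loop-helix repressor, had 221, 190.3 and 172 CPM against 52.9, 103 and 88.5 CPM (log2 1.24 ± 0.18, adjusted p = 1.28e-05). Atf3 (log2 0.96 ± 0.23), Maff (0.78 ± 0.17) and the EGR corepressor gene Nab2 (0.45 ± 0.09) also rose, and Maf fell (-0.63 ± 0.16), with its call lost without CD229+ CD11c- replicate 1 (adjusted p = 0.0539). Among 16 lineage factors, 1 rose and 3 fell (6.25% and 18.8%), beside 8.64% and 8.53% of all genes. Mitf, a factor that binds lysosomal gene promoters, rose 1.53-fold. Smad3, a mediator of TGF-beta signals, was 1.47-fold lower. Irf4, a factor of lymphoid and myeloid cells, was 2.01-fold lower, and Sall3 fell by 0.33 on the log2 scale. Among libraries with PE150 in their titles, the calls of Atf3 (adjusted p = 0.14) and Sall3 (0.0912) were lost. The transcription inhibitor in the buffers limits new transcription during cell preparation, and its part in the levels of immediate early genes was not tested.

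Genes of nucleotide receptors, uptake of dying cells, TGF-beta signalling and H3K27 regulation were each called in a few members. Of 8 nucleotide receptor and related genes in the list tested, 3 rose and 1 fell (37.5% and 12.5%). The nucleotide receptor genes P2rx1, P2ry12 and P2ry13, called lower above, were not in that list, so its counts do not cover the family. Of 8 uptake receptor genes, 2 rose and 2 fell (25% each). Of 10 TGF-beta signalling genes in the list, 2 rose and 0 fell (20% and 0%). Smad3, which fell, was counted among the lineage factors above and not here. Of 12 H3K27 regulators, 0 rose and 2 fell (0% and 16.7%). Among all genes 8.64% rose and 8.53% fell. P2rx4, an ATP-gated channel, had 260.2, 251 and 209 CPM in CD229+ CD11c+ against 151, 157 and 139 CPM in CD229+ CD11c- (log2 0.69 ± 0.08, adjusted p = 9.62e-07). Adora3, an adenosine receptor, fell (-0.42 ± 0.09). Itgb8, the integrin chain that activates TGF-beta, rose by 1.85 ± 0.37, and Elmo1, which links uptake receptors to the cytoskeleton, had 233, 242 and 233 CPM against 398, 354 and 348 CPM (log2 -0.64 ± 0.10, adjusted p = 3.73e-05). Kdm6b, an eraser of the repressive H3K27 methyl mark, had 50.2, 58.2 and 71.2 CPM against 90.7, 87.9 and 107 CPM (log2 -0.66 ± 0.10). The gates did not overlap for P2rx4, Elmo1 or Kdm6b.

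Cell cycle genes were called in one direction. Of 25 tested, 0 rose and 4 fell (Mki67, Top2a, Rrm2 and Ccna2), with a median log2 fold change of -0.50. These are 0% and 16%, beside 8.64% higher and 8.53% lower among all genes. Mki67 had 93.6, 137 and 149 CPM in CD229+ CD11c+ against 173, 273 and 197 CPM in CD229+ CD11c- (log2 -0.76 ± 0.20, adjusted p = 0.0102). Its call was lost without CD229+ CD11c+ replicate 1 (adjusted p = 0.0864), without CD229+ CD11c- replicate 2 (0.0862) and in DESeq2's Wald test (0.0772). Top2a, Rrm2 and Ccna2 lost their calls without CD229+ CD11c+ replicate 1 or 2 or CD229+ CD11c- replicate 2, and Top2a also without CD229+ CD11c- replicate 3 (adjusted p = 0.0521 to 0.242 over these).

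Markers of other cells moved in several lists. Endothelial markers summed to 249 to 305 CPM in CD229+ CD11c+ against 109.9 to 207 CPM in CD229+ CD11c-, with no overlap. Flt1, a VEGF receptor of endothelium and macrophages, was higher (log2 1.20 ± 0.21), while the endothelial adhesion genes Pecam1 (-1.66 ± 0.23) and Cdh5 (-1.16 ± 0.27) were lower. Monocyte markers summed to 76.4 to 97.8 CPM in CD229+ CD11c+ against 25.2 to 45.0 CPM in CD229+ CD11c-, of which Vim, a filament gene of many activated cells, made up most with means of 89.8 and 34.3 CPM. Fpr2, a receptor of the same list, was at 0, 0 and 0.133 CPM in CD229+ CD11c+ against 1.19, 1.02 and 0.786 CPM in CD229+ CD11c-. Klrb1c, a natural killer cell receptor, was the 1 tested gene of the T and natural killer list and was higher, with 5.06, 6.39 and 7.45 CPM in CD229+ CD11c+ against 1.07, 1.86 and 0.643 CPM in CD229+ CD11c-.

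Astrocyte markers summed to 124 to 151 CPM in CD229+ CD11c+ and 136 to 158 CPM in CD229+ CD11c-. Of the 6 tested, 2 rose and 1 fell, with a median log2 fold change of 0.79. Gfap, the filament of astrocytes, had 5.06, 10.4 and 7.06 CPM against 1.43, 4.18 and 1.71 CPM (log2 1.62 ± 0.39, adjusted p = 0.00443). Slc1a2, a glutamate transporter, rose by 2.11 ± 0.56, a call lost without CD229+ CD11c+ replicate 2 (adjusted p = 0.0545), and Slc1a3, a related transporter, fell by 0.28, a call lost without replicate 1 of CD229+ CD11c+ (0.0812) or of CD229+ CD11c- (0.0905). Oligodendrocyte markers summed to 196 to 219 CPM in CD229+ CD11c+ and 189 to 201 CPM in CD229+ CD11c-, with Mbp of 5 tested called higher (0.24 ± 0.08), a call lost without CD229+ CD11c+ replicate 2 (0.191) or CD229+ CD11c- replicate 1 (0.144) or 3 (0.0836). Neuronal markers summed to 2.40 to 5.19 CPM in CD229+ CD11c+ and 0.954 to 2.07 CPM in CD229+ CD11c-, with 0 of 2 tested called. Dendritic cell markers summed to 363 to 433 CPM in CD229+ CD11c+ and 428 to 597 CPM in CD229+ CD11c-, with Zbtb46 of 8 tested called higher (0.94 ± 0.28), a call lost without CD229+ CD11c+ replicate 1 or 3 or CD229+ CD11c- replicate 1 or 3 (0.051 to 0.0763). Cd79b of the B cell list was called lower (-0.47 ± 0.16), a call lost without CD229+ CD11c+ replicate 1 or 2 or CD229+ CD11c- replicate 1 or 3 (0.0914 to 0.212). The neutrophil list held 1 tested gene, Csf3r, which was not called, with 4 other markers at 0 in all 6 libraries. The part of these cells in the step was not tested.

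**Figure D3:**
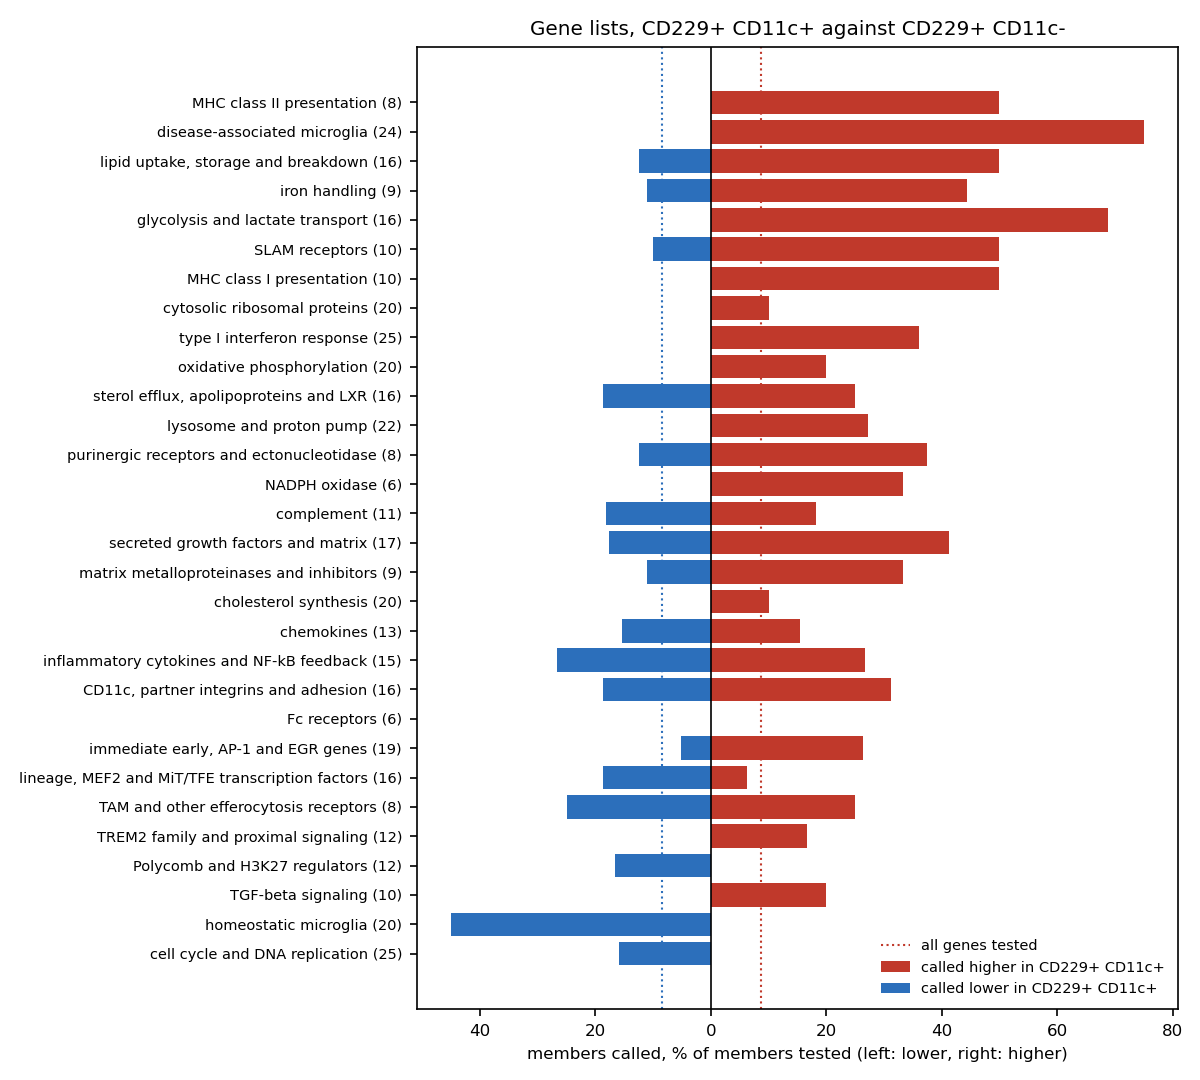
Percent of the tested members of 30 gene lists (number tested in brackets) that were called higher (right) or lower (left) in CD229+ CD11c+ than in CD229+ CD11c-, with dotted lines at the shares of all genes tested, 8.64% and 8.53%. Disease-associated genes have 18 of 24 higher and 0 lower, glycolysis genes 11 of 16 and 0, and homeostatic genes 0 and 9 of 20.

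Genes of both directions were set beside their promoters in the RefSeq table of GRCm38.p6, which matched 9850 of the 13187 tested genes. In the window of 250 bases before to 50 bases after the start, the AP-1 motif TGANTCA stood in 62 of 830 promoters of higher genes (7.47%), in 49 of 846 promoters of lower genes (5.79%), in 4.8% of all tested promoters and in 7.81% of the 32851 promoters in the table. The motif TCACGTG, bound by MiT/TFE factors such as MITF, stood in 7.11% of higher, 5.2% of lower, 6.26% of all tested and 3.77% of all promoters in the table. Both strands were searched. The PU.1 motif GAGGAAGT stood in 4.94% of higher, 4.37% of lower and 3.37% of all tested promoters, and the EGR motif GCGTGGGCG in 2.05%, 1.18% and 1.28%. A match is a string of letters and does not show binding. The sequences below are examples, chosen so that the gated gene and genes of both directions can be compared. Itgax, Mmp12 and Gpnmb, which rose, and Adgrg1, which fell, hold the AP-1 letters, and Plin2, which rose, and Siglech, which fell, hold the MiT/TFE letters. Other genes named here hold them too, among them Rnf186, Cybb, Klra2 and Il1a for AP-1, Atp6v1a and P2ry12 for MiT/TFE, and Glb1 and Tnfaip3 for both. Each runs 5′ to 3′ on the gene's strand, 150 bases before to 30 after the start, with the named motif in capitals.
Itgax (chr7:128129400-128129579, plus strand): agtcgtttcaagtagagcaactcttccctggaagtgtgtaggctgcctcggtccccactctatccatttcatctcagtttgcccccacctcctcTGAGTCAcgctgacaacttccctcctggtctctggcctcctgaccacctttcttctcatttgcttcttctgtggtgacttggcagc
Mmp12 (chr9:7347224-7347403, plus strand): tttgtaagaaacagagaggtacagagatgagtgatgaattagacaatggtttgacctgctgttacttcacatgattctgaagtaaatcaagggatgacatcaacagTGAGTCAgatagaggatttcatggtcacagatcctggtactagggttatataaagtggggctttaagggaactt
Gpnmb (chr6:49036368-49036547, plus strand): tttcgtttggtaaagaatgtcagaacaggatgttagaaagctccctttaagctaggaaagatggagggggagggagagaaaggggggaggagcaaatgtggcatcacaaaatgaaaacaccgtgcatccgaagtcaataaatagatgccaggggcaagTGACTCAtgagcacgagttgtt
Adgrg1 (chr8:94984249-94984428, plus strand): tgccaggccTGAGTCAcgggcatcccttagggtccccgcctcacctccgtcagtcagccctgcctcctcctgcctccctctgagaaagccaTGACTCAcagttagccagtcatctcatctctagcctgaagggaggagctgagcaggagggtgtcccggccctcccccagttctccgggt
Plin2 (chr4:86670030-86670209, minus strand): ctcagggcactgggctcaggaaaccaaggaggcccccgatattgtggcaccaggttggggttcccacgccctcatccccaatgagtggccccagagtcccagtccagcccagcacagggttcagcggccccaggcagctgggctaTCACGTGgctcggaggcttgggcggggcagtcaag
Siglech (chr7:55768034-55768213, plus strand): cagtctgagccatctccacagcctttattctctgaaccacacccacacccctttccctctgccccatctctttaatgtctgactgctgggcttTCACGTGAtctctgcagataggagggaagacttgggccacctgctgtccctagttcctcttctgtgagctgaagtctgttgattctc
The AP-1 match lay 56 bases before the start in Itgax and 44 bases before it in Mmp12, and at base 9 after the start in Gpnmb. Adgrg1, an adhesion receptor of homeostatic microglia, held 2 matches 141 and 59 bases before its start, and its level was 338, 344 and 337 CPM in CD229+ CD11c+ against 727, 539 and 506 CPM in CD229+ CD11c- (log2 -0.80 ± 0.15, adjusted p = 0.000294). The same letters thus stand before genes of both directions. The MiT/TFE match lay 5 bases before the start in Plin2. In Siglech the letters stand on both strands in overlap, 57 and 56 bases before the start. Siglech had 447, 409 and 358 CPM in CD229+ CD11c+ against 718, 575 and 501 CPM in CD229+ CD11c-.

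The same step was measured in Egr2KO microglia, which asks whether it depends on Egr2. Cre and Egr2KO steps share no library. In the libraries labelled Egr2KO, Egr2 still averaged 81.0 CPM in CD229+ CD11c+ and 32.3 CPM in CD229+ CD11c- (log2 1.30 ± 0.20, adjusted p = 6.01e-05). A count over the whole gene includes parts outside a deleted exon, so these levels do not check the label. The Egr2KO step called 717 genes higher (5.44% of those tested) and 824 lower (6.25%), fewer than in Cre. Of the 1139 genes that rose in Cre, 583 also rose in Egr2KO, 51.2% of the Cre list and 81.3% of the Egr2KO list. Of the 1125 that fell in Cre, 572 also fell in Egr2KO, 50.8% of the Cre list and 69.4% of the Egr2KO list. No gene was called in opposite directions. Genes chosen for their rise in Cre had a median log2 fold change of 0.57 in Cre and 0.39 in Egr2KO, and those that fell -0.50 and -0.36, where the choice in Cre favours the larger values there.

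The test of the difference between the genotypes called 0 genes with edgeR (405 had an unadjusted p under 0.05, and the smallest adjusted p was 0.999999) and 0 with DESeq2, so a count that is larger in Cre does not show a larger step. Without a filter on low counts it called 10 genes, each with a more positive step in Cre than in Egr2KO. Postn rose by 3.58 ± 0.16 in Cre and by 3.54 ± 0.16 in Egr2KO on the log2 scale, and Slamf7 by 3.05 ± 0.19 and 2.98 ± 0.22. Wider gaps stayed short of the threshold. Acod1 rose by 3.09 ± 0.38 in Cre and 1.08 ± 0.32 in Egr2KO, a difference of 2.01 ± 0.51 with an unadjusted p of 0.00052, and Siglecg had -2.86 ± 0.29 and -1.54 ± 0.30, a difference of -1.32 ± 0.44 (unadjusted p = 0.00626). Glycolysis genes were called higher in 11 of 16 in Cre (median 0.39) and in 1 of 16 in Egr2KO (median 0.07), and disease-associated genes in 18 and 9 of 24 (medians 0.69 and 0.29). Slc16a3 was 1 of these, with a log2 fold change of 0.42 ± 0.08 in Cre and 0.10 ± 0.08 in Egr2KO (adjusted p = 0.473). Homeostatic genes fell in 9 of 20 in Cre and 8 of 20 in Egr2KO, with a median of -0.43 in both. Other lists had more calls in Egr2KO. Cell cycle genes fell in 4 of 25 in Cre and 14 of 25 in Egr2KO, with medians of -0.50 and -0.58. Border macrophage markers fell in 2 of 8 and 6 of 8, with medians of -1.25 and -2.48.

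**Figure D4:**
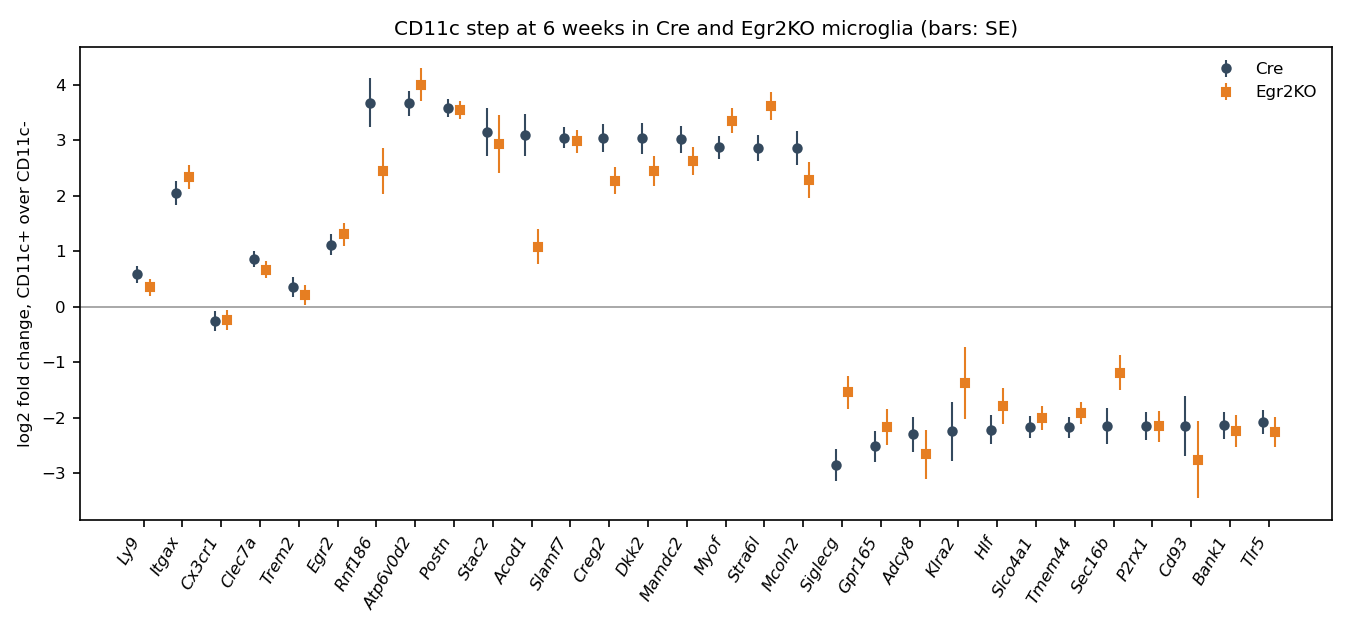
Log2 fold change of CD229+ CD11c+ over CD229+ CD11c- with SE bars for 30 genes named above, with Cre as circles and Egr2KO as squares to its right. Most pairs lie close together, as for Postn (3.58 and 3.54), and Acod1 (3.09 and 1.08) and Siglecg (-2.86 and -1.54) lie apart.

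CD11c steps at other times came from other tables, which were joined over 23008 genes and fitted together, with 12235 tested. The tables differ in weeks of cuprizone and in the count table they came from. They also differ in genotype (WT at 4 weeks) and in gating (Clec7a at 5 weeks). The term PE150 stands in titles of some 6-week libraries and of none from the earlier times. These differences cannot be told apart. At 4 weeks 1464 genes rose (12%) and 1474 fell (12%), at 5 weeks 860 rose (7.03%) and 875 fell (7.15%), and at 6 weeks 1511 rose (12.3%) and 1287 fell (10.5%) in this fit. Of the 1511 that rose at 6 weeks, 402 also rose at 5 weeks (26.6% of the 6-week and 46.7% of the 5-week list) and 508 at 4 weeks (33.6% of the 6-week and 34.7% of the 4-week list), while 58 fell at 5 weeks and 121 at 4 weeks. Of the 1287 that fell at 6 weeks, 266 also fell at 5 weeks (20.7% of the 6-week and 30.4% of the 5-week list) and 325 at 4 weeks (25.3% of the 6-week and 22.0% of the 4-week list), while 50 rose at 5 weeks and 146 at 4 weeks. The step differed between 6 and 5 weeks for 1670 genes, of which 908 were more positive at 6 weeks (7.42%) and 762 more negative (6.23%). Without CD229+ CD11c+ replicate 2 that count was 1094. Against 4 weeks it differed for 2416 genes (19.7%), 1261 more positive (10.3%) and 1155 more negative (9.44%).

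Some genes separated the gates at each time. Itgax averaged 1039.8, 984 and 811 CPM in CD229+ CD11c+ and 268, 326 and 194 CPM in CD229+ CD11c- at 4, 5 and 6 weeks, with log2 fold changes of 1.96, 1.59 and 2.06. Slamf7 had 2.59, 2.96 and 3.04, and Myof 3.08, 3.09 and 2.87, and neither was called different at 6 weeks. Tmem119 had -0.96, -0.66 and -0.96. Postn rose at each time, by 4.46, 4.22 and 3.58, and less at 6 weeks than at 5 (difference -0.64 ± 0.20, adjusted p = 0.0316) and at 4 weeks (-0.89 ± 0.22, adjusted p = 0.00594). Mki67 had log2 fold changes of -1.31, -1.10 and -0.75, and its differences were not called (adjusted p = 0.452 against 5 weeks and 0.182 against 4 weeks).

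Disease-associated genes did not follow this pattern. Gpnmb averaged 239 ± 27.9 CPM at 4 weeks, 275 ± 13.7 CPM at 5 weeks and 252 ± 84.5 CPM at 6 weeks in CD229+ CD11c+ (SD, n = 3 each). In CD229+ CD11c- it averaged 266 ± 33.6, 243 ± 17.4 and 81.5 ± 33.7 CPM. The CD229+ CD11c+ levels lay close together, and the 6-week CD229+ CD11c- level was the one that stood apart. The step in Gpnmb was larger at 6 weeks by 1.43 ± 0.29 than at 5 weeks (adjusted p = 0.00193) and by 1.77 ± 0.29 than at 4 weeks (adjusted p = 0.000191). Fabp5 had 71.5, 66.0 and 19.8 CPM in CD229+ CD11c- at 4, 5 and 6 weeks, and its step was 1.5 ± 0.23 larger at 6 weeks than at 5 (adjusted p = 0.000277). Its CD229+ CD11c+ libraries had 62.6, 73.4 and 63.3 CPM at 5 weeks and 73.7, 58.5 and 39.8 CPM at 6 weeks. Gpr165 showed the mirror image, with 4.10, 5.62 and 39.8 CPM in CD229+ CD11c- and 3.52, 4.2 and 6.43 CPM in CD229+ CD11c+ at the same times.

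**Figure D5:**
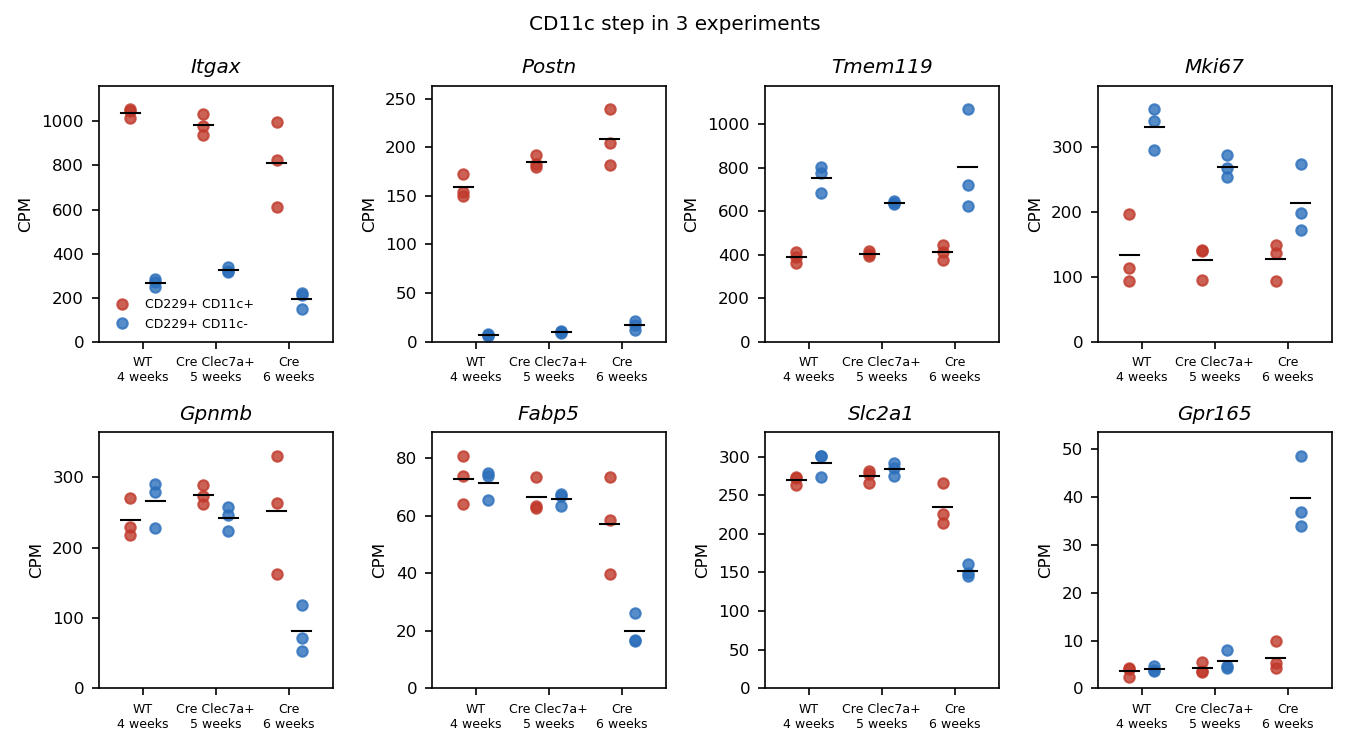
Levels per library (points) and means (bars) at 4, 5 and 6 weeks in CPM (linear axes from 0) for 8 genes, CD229+ CD11c+ left of CD229+ CD11c- at each time. For Itgax and Tmem119 the gates are apart at each time, and for Gpnmb, Fabp5, Slc2a1 and Gpr165 the 6-week means lie widest apart.

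By list, disease-associated genes rose and fell in 3 and 3 of 23 at 4 weeks, in 2 and 2 at 5 weeks and in 17 and 0 at 6 weeks, with medians of -0.03, 0.01 and 0.55. The step was called more positive at 6 weeks for 13 of the 23 against 5 weeks and for 14 against 4 weeks. Summed CPM of the list in CD229+ CD11c- was 20243 to 23612 at 4 weeks, 19404 to 21140 at 5 weeks and 9138 to 12056 at 6 weeks. In CD229+ CD11c+ it was 20100 to 22746, 19709 to 21631 and 12116 to 22059 at these times, so the 6-week libraries reached lower there too. Glycolysis genes rose and fell in 0 and 9 of 15 at 4 weeks, 0 and 2 at 5 weeks and 10 and 0 at 6 weeks, and 8 steps differed between 6 and 5 weeks. Slc2a1 had log2 fold changes of -0.11, -0.05 and 0.63, and its CD229+ CD11c- level was 292, 284 and 152 CPM. Cell cycle genes fell in 23 of 24 at 4 weeks, 19 at 5 weeks and 7 at 6 weeks, with medians of -0.98, -0.76 and -0.40. Their step was called different, more positive at 6 weeks, for only 3 genes against 5 weeks and 6 against 4 weeks. The counts of calls alone therefore do not show a smaller step. Homeostatic genes were called lower in 9, 5 and 11 of 20, and their steps were called different in 2 genes against each of the earlier times. MHC class II genes rose and fell in 5 and 1 of 7 at 4 weeks, 5 and 1 at 5 weeks and 5 and 0 at 6 weeks. Their step was called more negative at 6 weeks for 2 genes against each earlier time, and more positive for 1 against 4 weeks.

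Among genes that met the naming rule for differences between times, Mcoln2, a lysosomal ion channel, had the largest positive one against 5 weeks (2.84, adjusted p = 6.31e-06) and against 4 weeks (2.76, adjusted p = 5.41e-06). It averaged 8.21 CPM in CD229+ CD11c+ and 1.11 CPM in CD229+ CD11c- at 6 weeks, against 5.19 and 5.15 CPM at 5 weeks and 5.37 and 4.92 CPM at 4 weeks. Hlf, a bZIP transcription factor, had the largest negative difference against 5 weeks (-2.96 ± 0.45), with 2.74 CPM in CD229+ CD11c+ and 14.1 CPM in CD229+ CD11c- at 6 weeks, against 2.23 and 1.34 CPM at 5 weeks. Ikbke, a kinase of innate immune signalling, averaged 71.7 ± 8.34 CPM in CD229+ CD11c+ and 10.5 ± 3.05 CPM in CD229+ CD11c- at 6 weeks, against 100.2 and 75.0 CPM at 5 weeks, a difference of 2.33 ± 0.16 in log2 fold change (adjusted p = 4.72e-09). Hpse, the enzyme heparanase, had a log2 fold change of 1.31 at 6 weeks and -0.97 at 4 weeks. Il7r, the interleukin-7 receptor, went the other way with -1.86 at 6 weeks and 1.12 at 4 weeks, and averaged 10.6 CPM in CD229+ CD11c+ and 40.6 CPM in CD229+ CD11c- at 6 weeks, against 7.90 and 3.52 CPM at 4 weeks. The steps of both genes thus had opposite signs at the 2 times.

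On the deposited TPM scale, which allows levels to be set side by side between genes, Apoe had the largest gap, with 3673 ± 1241 TPM in CD229+ CD11c+ and 1525 ± 288 TPM in CD229+ CD11c- (SD, n = 3 each). Lyz2, the lysozyme gene, had 748 ± 199 against 418 ± 50.9 TPM and Spp1 565 ± 141 against 281 ± 67.2 TPM. Among falling genes, P2ry12 had 343 ± 15.8 TPM in CD229+ CD11c+ and 668 ± 147 TPM in CD229+ CD11c-, and Tmem119 had 285 ± 2.96 and 575 ± 136 TPM. The TPM rows of Apoe, Spp1 and P2ry12 list another transcript than their count rows. The genes with the largest fold changes were thus not those with the largest gaps in abundance.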

How the data were processed

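Bulk RNA-seq of sorted microglia was analysed from the gene counts that the authors deposited for the 6-week, 5-week and 4-week experiments, and from the TPM values they deposited for the same 6-week libraries. Per the submitters' processing notes, fastp 0.20.0, STAR 2.7.0f, HOMER 4.11 and DESeq2 were used with mm10/GRCm38. Which step each tool did, and whether counting used strand, is not given in the sources used here, and titles carry the term dUTP. The gene rows of 4821 genes list another transcript in the TPM table than in the count table, so TPM were used for levels only.

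The 23 libraries of the 6-week table, in 8 groups, were fitted together in R 4.3.3 with edgeR 4.0.16 and limma 3.58.1: filterByExpr by group (13187 of 25124 genes kept), TMM factors, the quasi-likelihood F test with 15 residual degrees of freedom, and Benjamini-Hochberg adjustment at 0.05. SE is the size of the log2 fold change divided by the square root of F. A second fit over 18 libraries joined the 3 tables by transcript and symbol (23008 genes joined, 2116 not, 12235 tested, 12 residual degrees of freedom), with each difference between steps as a contrast. Library totals in the 6-week table were 4387075 to 13884739 reads, and 12048 to 12881 genes had at least 10 reads in the libraries compared. Steps were tested on simulated data over 13187 genes. The genes made to change were drawn only from those with a mean of at least 5 CPM. Among them the CD11c step called 96% of genes changed 2-fold and 99% of those changed 4-fold. It also called 15 of 12843 unchanged genes. The difference between Cre and Egr2KO called 84% and 99% of the same genes. These shares do not cover genes of lower counts. They hold for data with 100 genes changed 2-fold and 100 changed 4-fold. Where fewer genes differ, the adjustment asks for smaller p-values. The shares therefore do not give the recovery of a few differing genes between Cre and Egr2KO.

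Named genes were the sorting, driver and target genes, the 12 largest called changes per direction with at least 5 CPM in the higher group and no overlap between gates, up to 4 members per list by p plus every member of a count of 5 or fewer, 6 genes per direction by TPM difference and 5 per direction for each difference between times. Csf1r, Tyrobp, Ctsd, Lpl, Csf1 and Igf1, members of the lists, were added after their values were seen. The genes and lists were chosen with earlier results of these data known. Sequences came from RefSeq promoters of GRCm38.p6. DESeq2 1.42.0, other scaling, no filter, single libraries left out, a replicate block and the PE150 term were tried as alternatives.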

Additional observations from a re-analysis of the deposited data

Results flagged for a closer look

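The 31 genes listed for each earlier time had a CD11c step at 6 weeks that differed from it, by a test of the difference itself. Their adjusted p was 4.72e-09 to 0.0469, within 1670 such genes against 5 weeks and 2416 against 4 weeks in WT mice. Of the sorting, driver, target and 24 largest genes, 29 had a joint value. Among these, 18 differed from 5 weeks and 15 from 4 weeks. The other genes below were added to these or picked for the largest called differences. The 31 are therefore not a share of all named genes. The values below are the 6-week minus the earlier log2 fold change. Weeks, genotype, gating, table and the term PE150 in titles differ together and cannot be told apart.

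Against 5 weeks, the step was more positive for the disease-associated genes Gpnmb (1.43), Fabp5 (1.5) and Clec7a (0.57). It was also more positive for the transcription factors Egr2 (0.55) and Bhlhe40 (1.09), the integrin Itgal (1.44), the lipid droplet gene Plin2 (0.97) and the glucose transporter Slc2a1 (0.67). Among genes with the largest rise it was more positive for Rnf186 (1.87), Atp6v0d2 (1.25), Stac2 (1.89), Acod1 (2.13), Creg2 (1.70), Dkk2 (1.56), Mamdc2 (1.5) and Mcoln2 (2.84), and more negative for Postn (-0.64). Falling genes were more negative, with Siglecg at -2.58, Gpr165 at -2.10, Hlf at -2.96, Slco4a1 at -1.23, Sec16b at -1.76, Bank1 at -1.61, Tlr5 at -2.31, Upk1b at -1.46 and Slc40a1 at -0.90. The call of Siglecg was lost without CD229+ CD11c+ replicate 2. Beside Mcoln2, Acod1, Hlf, Siglecg and Tlr5, the genes with the largest differences among those that met the naming rule were Ikbke (2.33), Cd5l (1.99), Adgrg3 (1.99), Sema4b (-2.40) and Dmrtb1 (-2.18).

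Against 4 weeks, Gpnmb differed by 1.77, Fabp5 by 1.48, Clec7a by 0.51, Egr2 by 0.52, Bhlhe40 by 1.28, Itgal by 1.94, Plin2 by 0.89 and Slc2a1 by 0.74. Acod1 differed by 1.89, Creg2 by 1.38, Dkk2 by 1.67, Mamdc2 by 1.66 and Mcoln2 by 2.76, and Postn by -0.89. Of the falling genes, Gpr165 differed by -2.32, Hlf by -2.71, Slco4a1 by -1.09, Sec16b by -2.09, P2rx1 by -1.25, Bank1 by -1.73, Tlr5 by -1.76, Upk1b by -2.00 and Slc40a1 by -1.22. Beside Mcoln2 and Hlf, the genes with the largest differences among those that met the naming rule were Cox6a2 (2.42), Hpse (2.29), Apob (2.15), Cd28 (2.14), Il7r (-2.98), Snph (-2.98), Setbp1 (-2.95) and Slc14a1 (-2.85). The call of Apob was lost without CD229+ CD11c+ replicate 2.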

How the results depend on the processing

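Of 203 named genes tested, 171 were called. Over the 13 alternatives, 116 kept their call wherever they were tested, 55 lost it in at least 1 and 0 changed sign. Some named genes did not pass the filter on counts in every alternative and were not tested there. The 2264 calls of the CD11c step became 2241 with RLE scaling, 2472 with no filter on low counts, 2299 with DESeq2, 1818 with only the compared groups and 2892 with PE150 as a covariate. With a replicate block and only the compared groups, 3466 genes were called, 1823 of them higher. Same-numbered libraries deviated together weakly (correlations of 0.178, 0.134 and 0.0939, each library best with its own number), a hint from the data and not the design, so the numbers were not taken as pairs. With only libraries that carry PE150 in their titles, 1277 genes were called, 653 higher and 624 lower. That subset also ended calls of named genes, among them Slc1a3, Abcg1, Acsl1, Apob, Ccna2, Ccr1, Cd244a, Cd74, Ciita, Dhcr7, Folr2, H2-Ab1, H2-Oa, Il18, Lpcat3, Mgll, Mrc1, Pmvk and Tnfaip3. Leaving out 1 library gave 1512 to 2639 calls, 812 to 1399 higher and 691 to 1240 lower, with 691 without CD229+ CD11c+ replicate 1. The difference between Cre and Egr2KO stayed at 0 calls with RLE scaling, DESeq2, only the compared groups and the replicate block (0 to 0 with 1 library left out), and no filter gave 10, all 10 more positive in Cre. Between 6 and 5 weeks, the replicate block gave 2596 calls (1437 and 1159 by direction) against 1670. Leaving out 1 library gave 1094 to 2320 calls (577 to 1287 more positive, 517 to 1033 more negative), and CD229+ CD11c+ replicate 2 gave the lowest, 1094 and 577. Between 6 and 4 weeks the block gave 3330 against 2416, and leaving out 1 library 1713 to 2986 (851 to 1621 and 862 to 1365). Where a count moved, the cause was not tested, other than that single libraries left out and the PE150 subset hold fewer samples. Genes of a few CPM rest on few reads, and differences near 2-fold between genotypes were recovered less often than those of 4-fold on simulated data.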
